A study of Mus musculus with 16 samples.

Results

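Aquaporins are membrane channels that pass water, and some of them also glycerol or hydrogen peroxide, down a gradient. The colon dries its contents by taking up salt with water following, while its goblet cells release mucin that must be hydrated, so the 2 kinds of epithelial cell handle water differently. The genes described here are Aqp1, Aqp3, Aqp4, Aqp7, Aqp8 and Aqp11, chosen by name and found by Ensembl identifier among the 45513 genes counted. Earlier results of these data were known when they were chosen. All 6 were present, and 4 of them (Aqp1, Aqp4, Aqp8 and Aqp11) had enough counts for the test, which covered 15841 genes. Aqp1, Aqp4 and Aqp8 are water channels, Aqp3 and Aqp7 are aquaglyceroporins that also pass glycerol, and Aqp11 belongs to a divergent branch found inside the cell.

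The RNA was colonic and came from 8 mice of the line Atoh1(WT)CreERT2; Rosa26tdTom/+, adult animals of C57BL/6 background that all carried a tamoxifen-inducible Cre placed behind the Atoh1 coding sequence and 1 copy of the tdTom reporter. By the labels, and by the study's methods on animals for the secretory signature, each mouse received 1 mg of tamoxifen per day on 3 days, while the methods on RNA sequencing in general describe a single injection with collection a day later. Live EpCAM+ cells were sorted into tdTom+ cells, which had expressed Atoh1, the factor that commits cells to the secretory fate, and tdTom− cells, which are the rest of the epithelium and mainly absorptive. Every mouse gave both populations, so there were 8 libraries of each. By their numbers in the labels the mice form 3 series that may be batches: A (mice 1 to 3), B (mouse 4) and C (mice 5 to 8).

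Libraries held 16482530 to 24218367 counts in tdTom+ and 18318172 to 45791503 counts in tdTom− cells, the largest being the tdTom− library of mouse 4, and 3 counts, taken as the floor, correspond to 0.0583 to 0.194 CPM (counts scaled to a common, TMM-normalized library size). The sort was checked on its own genes: Atoh1 averaged 132 ± 19.3 CPM in the 8 tdTom+ libraries and 5.70 ± 1.67 CPM in the 8 tdTom− libraries (mean ± SD, log2 fold change 4.54). Epcam, the surface protein used in the gate, averaged 1218 ± 74.1 and 1402 ± 74.7 CPM. It was slightly lower in tdTom+ cells, in 8 of 8 mice (log2 fold change −0.20, adjusted p = 0.007823, edgeR's quasi-likelihood test). Higher in tdTom+ cells were all 9 goblet cell markers, with Atoh1 itself counted among them, and 3 of 3 markers of deep crypt secretory cells. Lower were 10 of 10 absorptive markers. The 4 stem cell markers were lower in tdTom+ cells, as were 6 of 6 enteroendocrine and 3 of 5 tuft cell markers. By these, tdTom− is not a purely absorptive population. Of 4 proliferation genes 1 was lower and the rest had no call. Over all genes tested, 25.5% were lower and 25.5% higher, so the proliferation genes were near that share. In sorted bulk RNA, fewer cells of a type and less RNA of a gene per cell cannot be told apart.

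Of the 4 aquaporins tested, 3 (Aqp8, Aqp4 and Aqp11) were lower in tdTom+ than in tdTom− cells and 0 were higher, by edgeR's quasi-likelihood test at a Benjamini-Hochberg adjusted p of 0.01. Over all genes tested, 25.5% were lower and 25.5% were higher by the same rule, so a called gene is common in this comparison and 4 genes are too few to set the family apart. The sizes ranged widely: Aqp8 was 36.1-fold lower, Aqp4 4.21-fold lower and Aqp11 1.30-fold lower. Aqp1 stood 1.31-fold higher, which did not pass the test without the mouse in the model. With the mouse as a block, where 28.4% of genes were higher, Aqp1 was the 1 aquaporin called higher. The median log2 fold change of all genes was 0.0039.

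**Figure D1:**
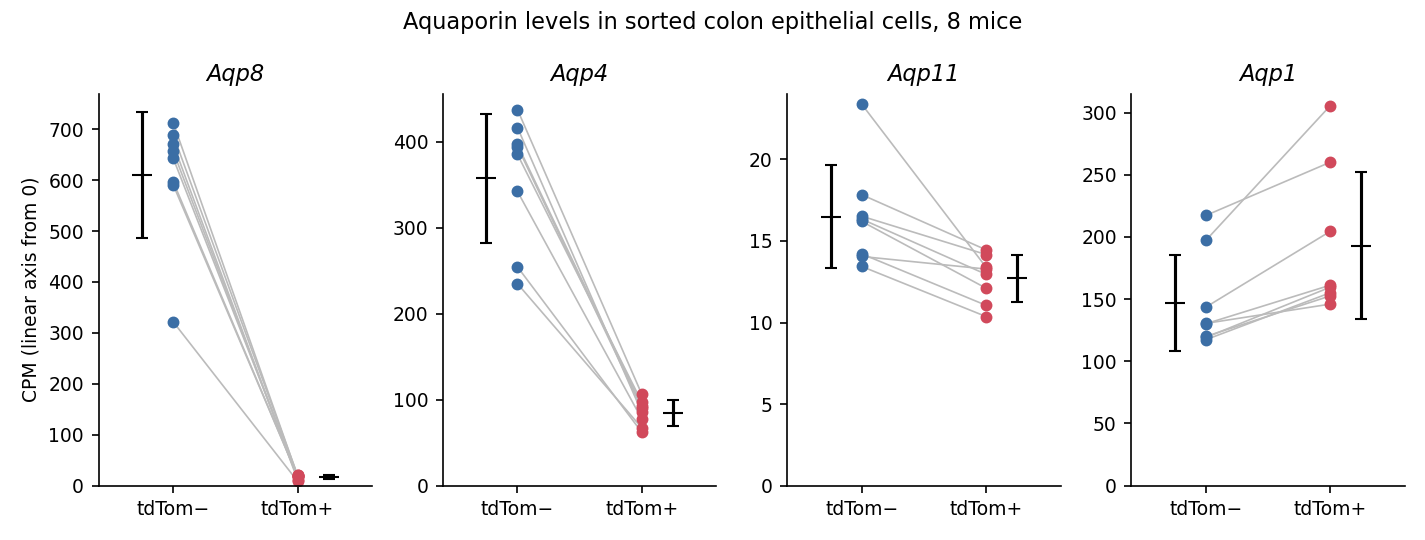
Level of the 4 tested aquaporins in CPM (linear axes that start at 0, each gene on its own scale) in tdTom− (blue) and tdTom+ cells (red). Each point is a library, grey lines join the 2 libraries of a mouse, and the bars beside the points give the mean and SD over 8 mice. Points of Aqp8 and Aqp4 do not overlap between the populations, those of Aqp11 and Aqp1 do.

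Aqp8 (ENSMUSG00000030762) is a channel of the apical membrane of colonic absorptive cells that passes water and hydrogen peroxide. The gene lies at chr7:123462294-123468003 of GRCm38, on the plus strand, is protein-coding and has 7 exon blocks. The 300 bases around its start (250 before and 50 after), from RefSeq's GRCm38.p6, chr7:123462044-123462343 on the plus strand, are shown because Aqp8 had the largest difference of the 4 tested. Capitals mark the motif letters found: GGGTG is CACCC read on the other strand, a Klf motif, and TTTATTG matches TTTATNG, a Cdx motif, and ends at the start site.
Aqp8: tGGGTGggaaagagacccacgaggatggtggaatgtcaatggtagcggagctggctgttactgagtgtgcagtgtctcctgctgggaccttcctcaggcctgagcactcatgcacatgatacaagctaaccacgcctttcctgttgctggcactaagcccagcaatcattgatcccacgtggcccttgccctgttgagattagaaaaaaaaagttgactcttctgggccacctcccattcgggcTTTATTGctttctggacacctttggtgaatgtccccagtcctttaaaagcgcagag

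In tdTom− cells Aqp8 ranged from 321.7 to 712.8 CPM with a median of 649.7, whereas its tdTom+ values lay between 8.88 and 20.9 CPM, with a median of 18.7. The lowest tdTom− library was therefore far above the highest tdTom+ library. Means over the 8 mice were 610.1 ± 124 CPM (tdTom−) and 16.9 ± 4.33 CPM (tdTom+), with SD as the error, which gave a log2 fold change of −5.18 (standard error 0.19, adjusted p = 5.585e-15, edgeR's quasi-likelihood test). It was lower in 8 of 8 mice, with within-mouse log2 differences from −5.82 to −4.95.

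The level left in tdTom+ cells was 2.77% of that in tdTom− cells. The 10 absorptive markers, which were lower too, were left at 3.17% to 65.6% of their tdTom− level, with a median of 5.38%. Aqp8 lay near the lowest of them, Car4. Their log2 fold changes were −5.18 (standard error 0.19) and −4.98 (standard error 0.17), and the difference between them was not tested. How much of the remaining Aqp8 came from absorptive cells in the tdTom+ gate was not tested.

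Mouse 4 had the lowest Aqp8 in both populations, 321.7 CPM against 590.7 to 712.8 CPM in the tdTom− libraries of the other 7 mice, and 8.88 CPM against 11.8 to 20.9 CPM in their tdTom+ libraries. The same tdTom− library was the deepest, had the lowest share of mitochondrial counts of its group (3.74%), and held 9 of the 10 absorptive markers at their lowest level, the exception being Car1. Car4 stood at 754.9 CPM there against 1040 to 1385 CPM in the others, and Krt20 at 531.2 against 788.8 to 1094 CPM. Their part in the low Aqp8 was not tested. Without mouse 4 the log2 fold change of Aqp8 was −5.15, so the difference between populations was as large.

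Aqp4 (ENSMUSG00000024411) is a water channel of the basolateral membrane in gut epithelium and is best known from astrocytes. It is a protein-coding gene at chr18:15389394-15403684, on the minus strand, with 5 exon blocks. Aqp4 ranged from 234.8 to 437.2 CPM in tdTom− cells (median 389.7) and from 62.2 to 106.5 CPM in tdTom+ cells (median 87.8). The populations did not overlap, but tdTom+ cells kept 23.8% of the tdTom− level. Means were 357.6 ± 75.0 and 84.9 ± 15.1 CPM (SD, n = 8), with a log2 fold change of −2.07 (standard error 0.14, adjusted p = 3.139e-11, edgeR). The within-mouse differences lay close together, from −2.29 to −1.80, and were negative in 8 of 8 mice.

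Aqp4 also varied between mice in a way that was shared by both populations. In tdTom− cells series A stood at 234.8 to 342.1 CPM and series C at 394.2 to 437.2 CPM, and in tdTom+ cells at 62.2 to 77.6 and 85.3 to 106.5 CPM, with mouse 4 at 385.2 and 97.3 CPM. The fold change was alike within the series, −2.003 in series A and −2.132 in series C. Mice 1 and 2 were the lowest in both populations, with tdTom− values of 234.8 and 254.4 CPM and tdTom+ values of 67.3 and 62.2 CPM. These 2 were also the mice with 1813 to 2138 counts of the Y-linked genes Ddx3y, Eif2s3y and Uty per library, against 7 to 24 counts in the other 6, whose Aqp4 ran from 342.1 to 437.2 and from 77.6 to 106.5 CPM. Mouse 3, of series A but with few Y-linked counts, was the lowest of those 6 in both populations. The labels give no sex, and the split by Y-linked counts was made after the values were seen and was not tested. For Aqp1, Aqp8 and Aqp11 the same split gave ranges that overlapped in both populations.

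**Figure D2:**
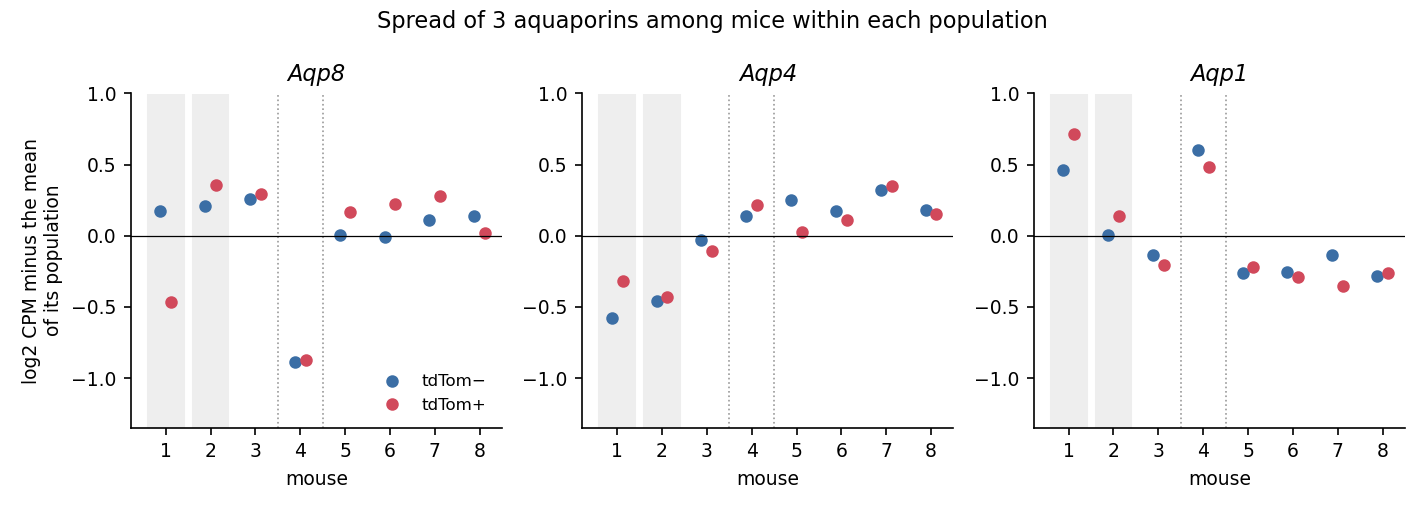
Log2 CPM of Aqp8, Aqp4 and Aqp1 in each mouse minus the mean of its own population (blue tdTom−, red tdTom+), so that the difference between populations is taken out. Dotted lines separate series A, B and C and grey bands mark the 2 mice with Y-linked counts. Mouse 4 is lowest in Aqp8, mice 1 and 2 are lowest in Aqp4, and mice 1 and 4 are highest in Aqp1, each in both populations, whereas Aqp8 of mouse 1 is low in tdTom+ cells alone.

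Aqp1 (ENSMUSG00000004655) is a constitutive water channel, abundant in red cells, capillary endothelium and kidney tubule. It lies at chr6:55336432-55348555, on the plus strand, is protein-coding and has 4 exon blocks. The promoter window of RefSeq's GRCm38.p6, chr6:55336049-55336348 on the plus strand, lies around a RefSeq start that precedes the gene start used for counting, so the whole window is outside the counted gene. It is shown because Aqp1 was the 1 of the 4 tested aquaporins that was not lower in tdTom+ cells. Capitals mark GGGCGG (a GC box) and CACCC or, on the other strand, GGGTG.
Aqp1: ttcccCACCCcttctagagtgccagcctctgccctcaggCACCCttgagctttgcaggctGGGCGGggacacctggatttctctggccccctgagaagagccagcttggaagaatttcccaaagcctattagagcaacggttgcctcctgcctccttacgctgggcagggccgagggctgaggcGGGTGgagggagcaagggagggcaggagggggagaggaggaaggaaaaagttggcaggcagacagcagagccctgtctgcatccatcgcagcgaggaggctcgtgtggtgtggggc

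Aqp1 ranged from 146.0 to 305.5 CPM (median 160.4) in the tdTom+ and from 117.4 to 217.3 CPM (median 130.3) in the tdTom− libraries, so the groups overlapped. Mouse by mouse, however, tdTom+ was above tdTom− in 8 of 8 animals, by 0.16 to 0.63 on the log2 scale. The means were 193.1 ± 59.4 and 146.9 ± 38.6 CPM (SD, n = 8). With no mouse in the model the log2 fold change of Aqp1, 0.39 with a standard error of 0.17, was not called (adjusted p = 0.0479, edgeR). Adding the mouse as a block gave 0.38 (standard error 0.053, adjusted p = 5.857e-06, edgeR), which passed.

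The spread between mice was large for Aqp1: mice 1 and 4 were the highest in both populations, with 197.3 and 217.3 CPM among tdTom− and 305.5 and 260.1 CPM among tdTom+ libraries, while series C stayed between 117.4 and 130.5 and between 146.0 and 159.6 CPM. Each series was also fitted alone, with no mouse in the model. Within series C the log2 fold change was 0.33 and passed the test (adjusted p = 0.0002042, edgeR), and within series A it was 0.51 and did not (adjusted p = 0.0772, edgeR). The within-mouse differences of series A were all positive, from 0.31 to 0.63.

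Markers of other cells that are rich in Aqp1 were counted beside it. The 8 endothelial markers summed to 9.38 to 13.5 CPM in tdTom+ and 7.65 to 11.3 CPM in tdTom− libraries, and Cdh5 and Kdr never exceeded 3 counts. Of the 3 endothelial markers with enough counts Vwf was higher (7.89 against 3.79 CPM, log2 fold change 1.05) and Pecam1 was lower (−1.58) in tdTom+ cells, while Esam had no call (0.43). The 6 erythroid markers summed to at most 0.154 CPM in tdTom+ and 0.864 CPM in tdTom− libraries. How much Aqp1 such cells contributed was not tested. Sox10 and S100b, markers of glia, the cells best known for Aqp4 in the nervous system, never exceeded 3 counts.

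Aqp11 (ENSMUSG00000042797), an aquaporin of the endoplasmic reticulum, lies at chr7:97726379-97738247 on the minus strand and has 3 exon blocks. Its promoter window, chr7:97738198-97738497 of GRCm38.p6 on the minus strand, is shown for comparison with Aqp8, since both genes lie on chromosome 7 and were lower in tdTom+ cells by very different amounts. Capitals mark GGGTG and TGACCT, which is AGGTCA, a nuclear receptor half-site, on the other strand.
Aqp11: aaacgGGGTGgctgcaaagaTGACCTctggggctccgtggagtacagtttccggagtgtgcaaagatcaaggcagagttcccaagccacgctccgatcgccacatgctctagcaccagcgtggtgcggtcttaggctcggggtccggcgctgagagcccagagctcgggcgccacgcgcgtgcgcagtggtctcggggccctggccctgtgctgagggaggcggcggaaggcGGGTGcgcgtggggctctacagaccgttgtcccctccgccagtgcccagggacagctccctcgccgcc

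Aqp11 ranged from 13.4 to 23.4 CPM in tdTom− cells (median 16.3) and from 10.4 to 14.5 CPM in tdTom+ cells (median 13.1), with overlap between the groups. It was lower in tdTom+ cells in 8 of 8 mice, with within-mouse log2 differences from −0.80 to −0.081. Means were 16.5 ± 3.16 and 12.7 ± 1.45 CPM (SD, n = 8), with a log2 fold change of −0.38 (standard error 0.10, adjusted p = 0.003863, edgeR). The call was lost, with the same direction, without mouse 1 (adjusted p = 0.01106), without mouse 4 (0.01005) or without mouse 8 (0.01403), all edgeR. With the mouse as a block it held (−0.36, adjusted p = 0.0003347, edgeR).

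**Figure D3:**
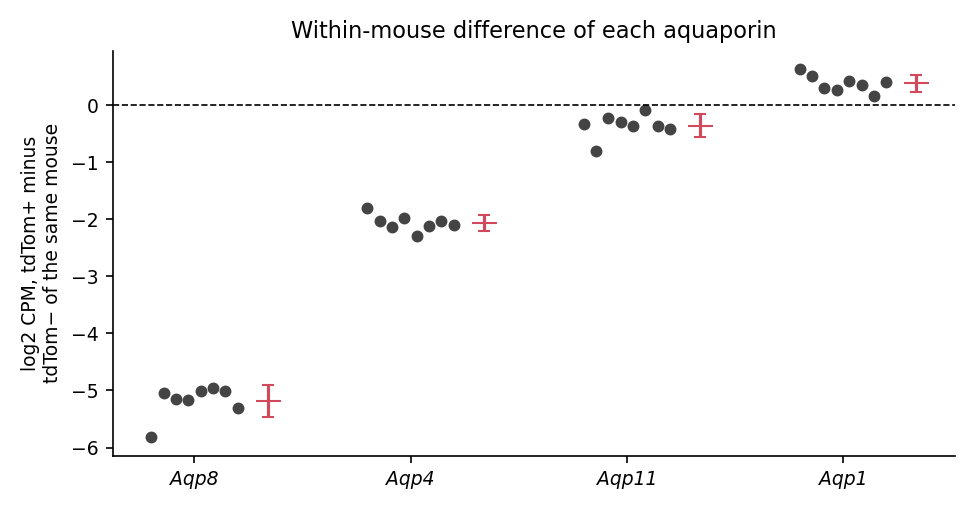
Difference in log2 CPM between the tdTom+ and tdTom− library of the same mouse, 1 point per mouse in the order of mice 1 to 8, with the mean and SD in red; the dashed line marks no difference. All 8 points of Aqp8, Aqp4 and Aqp11 are below 0 and all 8 of Aqp1 are above it.

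The sizes of these differences were compared within mice, over 6 pairs of genes, by an exact two-sided sign-flip test on 8 mice, for which 0.007812 is the smallest p possible. All 6 pairs reached it, also after Benjamini-Hochberg adjustment, each with the same order in 8 of 8 mice. The log2 ratio of Aqp8 was below that of Aqp4 by 3.12 ± 0.40 (SD over mice), and Aqp4 minus Aqp11 gave −1.70 ± 0.26. Aqp11 and Aqp1, the closest pair, differed by 0.74 ± 0.29.

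None of the promoter windows that could be read held CAGCTG or CAGATG, E-box letters, or GTTAAT, an Hnf1 half-site, on either strand. These were 6 windows of 5 genes, with 2 starts for Aqp7 that overlap. Among all 32851 promoters of the same length CAGCTG was found in 16.3%, CAGATG in 17.2% and GTTAAT in 7.1%. TTTATNG, present in Aqp8 alone, was found in 10.9%, AGGTCA, present in Aqp7 and Aqp11, in 16.3%, and GGGCGG, present in Aqp1 and Aqp3, in 35.7%. CACCC occurred in at least 1 window of each of the 5 genes and in 57.5% of all promoters. The Aqp8 window had a GC content of 52.0%, near the median of 52.7% over all promoters, while those of Aqp1 and Aqp11 had 62.7% and 68.0%. These are matches of letters only.

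Aqp3 and Aqp7, the aquaglyceroporins, were close to the floor in both populations. They are neighbours on chromosome 4, Aqp7 (ENSMUSG00000028427) at chr4:41033074-41048139 and Aqp3 (ENSMUSG00000028435) at chr4:41092722-41098183, both on the minus strand and 44582 bases apart. Aqp3, a basolateral channel known from the distal colon, had 0 to 7 counts per tdTom− library and 0 to 2 per tdTom+ library, 26 and 6 counts in all, and 13 of the 16 libraries had 3 counts or fewer. The ratio of pooled CPM, tdTom+ over tdTom−, was 0.283 (95% exact interval 0.0951 to 0.702, counting error only). With no filter on low counts its log2 fold change was −1.70 (adjusted p = 0.04996, edgeR), which did not pass.

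Aqp7, a glycerol channel known from adipocytes, had 5 to 14 counts per tdTom− library and 4 to 9 per tdTom+ library, 73 and 58 in all. It was higher in tdTom+ cells in 4 mice and lower in 4, with a ratio of 0.973 (95% exact interval 0.677 to 1.39), so no difference was detectable at this depth. The 4 adipocyte markers summed to 0.0598 to 0.615 CPM in tdTom+ and 5.27 to 14.4 CPM in tdTom− libraries, nearly all of it Cidec, a lipid droplet gene, since Adipoq, Plin1 and Lep never exceeded 3 counts.

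The rest of the family was looked up for completeness. Aqp9, another aquaglyceroporin, had 1 to 9 counts in each tdTom− library, 34 in all, and 0 counts in 8 of 8 tdTom+ libraries. Of the 16 libraries, 12 had 3 counts or fewer. With 3 counts assumed for the tdTom+ group as a whole, the difference would be 9.26-fold, which is not a lower bound. The 95% exact interval of its ratio, tdTom+ over tdTom−, runs from 0 to 0.140, which also allows a smaller difference than that. Without the filter edgeR gave an adjusted p of 0.0001536 and DESeq2 2.87e-05. The 8 leukocyte markers summed to 6.37 to 10.5 CPM in tdTom+ and 10.6 to 19.8 CPM in tdTom− libraries. Of the 3 with enough counts 2 were lower in tdTom+ cells and 1 had no call. Whether such cells contributed to Aqp9 was not tested. Aqp12, an intracellular aquaporin of the pancreas, had 64 counts in tdTom− and 53 in tdTom+ libraries (ratio 1.01, 95% exact interval 0.691 to 1.48). Mip, Aqp2, Aqp5 and Aqp6 had 0 counts in every library.

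Levels of different genes were compared per length, as RPKM, which is CPM divided by the exonic length in kilobases. In tdTom− cells Aqp8 led with 386.9 ± 78.5 RPKM (SD, n = 8), followed by Aqp4 with 70.4 ± 14.8, Aqp1 with 55.9 ± 14.7, Aqp11 with 12.5 ± 2.39, Aqp7 with 0.149 ± 0.067 and Aqp3 with 0.0767 RPKM. In tdTom+ cells the order was Aqp1 with 73.5 ± 22.6 RPKM, Aqp4 with 16.7 ± 2.97, Aqp8 with 10.7 ± 2.75, Aqp11 with 9.63 ± 1.09, Aqp7 with 0.136 ± 0.040 and Aqp3 with 0.0200 RPKM. Aqp8 thus led in tdTom− cells and Aqp1 in tdTom+ cells.

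Over the 10 pairs of neighbours in these orders, an exact two-sided sign-flip test on log2(RPKM + 0.01) left 2 pairs unresolved. Aqp4 was above Aqp1 in 5 of 8 tdTom− libraries (mean log2 difference 0.34, exact p = 0.1719, adjusted 0.191), and Aqp8 was above Aqp11 in 6 of 8 tdTom+ libraries (0.11, exact p = 0.5625). In tdTom+ cells Aqp4 was above Aqp8 in 7 of 8 mice (0.67, adjusted exact p = 0.01953). The other 7 pairs kept their order in 8 of 8 libraries (exact p = 0.007812, adjusted 0.01116). Aqp7 over Aqp3 is among them in both populations. Aqp3 had 0 counts in 4 tdTom+ libraries and 1 tdTom− library, where the added 0.01 RPKM sets its level. The pairs were taken from the order of the same values.

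Added over the 12 genes of the family, the aquaporin pool was 526.2 ± 65.1 RPKM in tdTom− cells (376.5 to 581.9) and 111 ± 19.6 RPKM in tdTom+ cells (97.4 to 147.3), with no overlap. Aqp8 held 72.7% ± 7.71 of the pool in tdTom− and 10.2% ± 3.48 in tdTom+ cells (SD, n = 8). Aqp1 showed the opposite, 11.1% ± 4.71 and 65.0% ± 7.78. The shares of Aqp4 were close, 13.7% ± 3.94 and 15.6% ± 4.17, and that of Aqp11 was 2.42% ± 0.61 in tdTom− and 8.81% ± 1.29 in tdTom+ cells. A share rises when the others fall, so the larger share of Aqp11 in tdTom+ cells goes with a lower level of the gene.

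**Figure D4:**
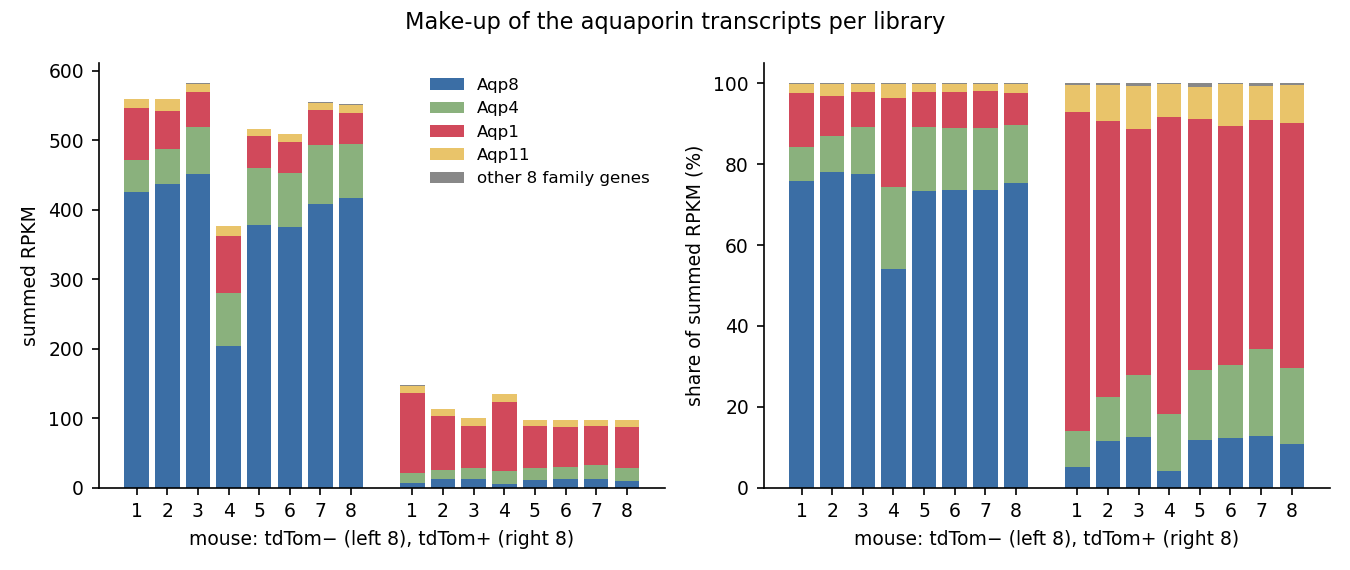
Summed RPKM of the aquaporin family per library (left) and the share of each gene in that sum in percent (right), for the tdTom− (left 8 bars of each panel) and tdTom+ libraries (right 8 bars) of mice 1 to 8. Aqp8 (blue) fills most of each tdTom− bar, 54.2% in mouse 4 and up to 78.0% in the others, and Aqp1 (red) 56.7% to 79.0% of each tdTom+ bar.

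Water follows salt across the colon, so genes of salt and fluid transport were read beside the aquaporins. Of 24, all with enough counts, 7 were higher and 10 lower in tdTom+ cells (median log2 fold change −0.22). Over all genes tested, 25.5% were higher and 25.5% lower, and the 7 higher genes are near that share. Slc9a3, the apical sodium-proton exchanger, averaged 4.07 ± 1.34 CPM in tdTom+ libraries against 126.5 ± 43.8 CPM in tdTom− libraries (SD, n = 8), a log2 fold change of −4.94 (adjusted p = 4.679e-13). Slc26a3, the chloride-bicarbonate exchanger and one of the 10 absorptive markers, fell by 4.45 (adjusted p = 1.031e-12). The highest were Scnn1b, a subunit of the epithelial sodium channel, which rose by 3.17 (adjusted p = 1.337e-11), and Hsd11b2, which inactivates glucocorticoids and rose by 2.54 (adjusted p = 1.243e-13), all by edgeR.

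Of 18 genes of osmotic and volume control 16 had enough counts, 4 of them higher, 6 lower and 6 with no call (median 0.12). The 4 higher genes are near the share of all genes tested, 25.5% in each direction. Stk39, a kinase that activates sodium-potassium-chloride cotransport, was higher by 1.24 (adjusted p = 6.725e-11) and Lrrc8d, a subunit of the volume-regulated anion channel, by 0.74 (adjusted p = 3.388e-09). Sgk1, a salt- and steroid-induced kinase, was lower, at −2.06 (adjusted p = 1.378e-07), as was Clcn2, a basolateral chloride channel, at −2.72 (adjusted p = 4.477e-15; edgeR). The urea transporters Slc14a1 and Slc14a2 did not exceed 3 counts in any library.

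Among 13 genes that handle neutral lipids and glycerol, the latter passed by the aquaglyceroporins, 1 was higher, 9 were lower and 3 had no call (median −0.91). The share of all genes tested was 25.5% in each direction. Mgll, which frees glycerol from monoglycerides, had a log2 fold change of −3.21 (adjusted p = 1.27e-11), Dgat2, which makes triglycerides, −2.22 (adjusted p = 1.827e-12), and Pnpla2, the first lipase of stored fat, −0.28 (adjusted p = 0.001927). Gpam, which starts glycerolipid synthesis, was the exception at 0.55 (adjusted p = 3.905e-06, edgeR). These changes stood beside Aqp3 and Aqp7 levels of under 1 CPM in every group mean.

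Aqp8 also passes hydrogen peroxide, and of 15 genes that make or remove it 1 was higher, 7 were lower and 7 had no call (median −0.043). Prdx6, a peroxidase, fell by 2.96 (adjusted p = 1.072e-13) and Duoxa2, the maturation factor of an oxidase, fell by 1.92 (adjusted p = 2.974e-07). Noxa1, an activator of Nox1, fell by 0.51 (adjusted p = 0.0001105), while Prdx4, the peroxidase of the endoplasmic reticulum, rose by 0.39 (adjusted p = 0.0002103, edgeR). Of 12 regulators (transcription factors of gut epithelium and the receptor Vipr1) 0 were higher and 9 lower (median −0.57), among them Ppara (−1.65), Pparg (−1.34), Vipr1, which binds vasoactive intestinal peptide (−0.48), and Klf4 (−0.36). Over all genes 25.5% were called in each direction. The lists were chosen with earlier results of these data known and were read by counts only.

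**Figure D5:**
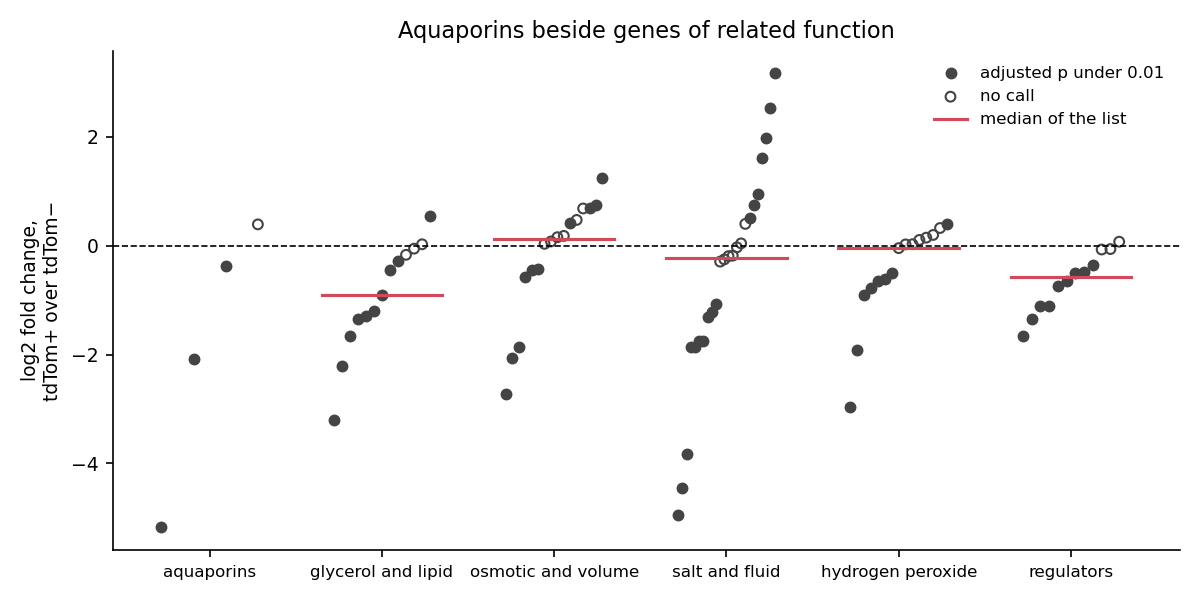
Log2 fold change (tdTom+ over tdTom−) of the 4 tested aquaporins and of the tested genes of 5 lists, sorted within each list. Filled points passed the adjusted p of 0.01, open points did not, and red lines give the medians of the 5 lists, from −0.91 (glycerol and lipid) to 0.12 (osmotic and volume).

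Genes next to the aquaporins on the chromosome were called in either direction or not at all. The tested neighbours of Aqp8 were Lcmt1, 31935 bases away (log2 fold change 0.11, no call), and 3100003L05Rik, 1157666 bases away (−4.56, called). The mean of 3100003L05Rik was 1.385 CPM in tdTom− cells. In tdTom+ cells it was 0.0517 CPM, under the floor of 3 counts (0.119 to 0.194 CPM there), so the size of its fold change is uncertain. Clns1a, 7499 bases from Aqp11, was higher (0.88, adjusted p = 2.778e-10, edgeR) and Pak1 had no call (−0.094). Beside Aqp1 lay Mindy4 (−0.19, no call) and Itprid1 (−0.83, called lower), and beside Aqp4 Kctd1 (0.12, no call) and Gm10036 (0.37, called higher). Nfx1 and Nol6, which flank the pair of Aqp7 and Aqp3, were both higher (0.61 and 0.42).

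The genes most like each aquaporin were taken by Pearson's r of log2 CPM over the 16 libraries, a description in which the difference between the populations weighs most. Aqp8 was followed by Car4 (0.998), Stom (0.998) and Ceacam20 (0.997), 2 of which are among the absorptive markers. For Aqp4 these were Pla2g3 (0.984), Car9 (0.984) and Tns4 (0.983), for Aqp1 Peli3 (0.913), Faah (0.897) and Zfp768 (0.874), and for Aqp11 Prr5 (0.899), Gm10463 (0.871) and Gm11964 (0.871).

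After the mean of each population was subtracted, so that the spread among the 8 mice remained, the order changed. Aqp4 was most like Gas2l3 (0.931) and the X-linked genes Kdm6a (0.929) and Kdm5c (0.921), which are known to escape X inactivation. Aqp8 was most like 1810026B05Rik (0.920), Car4 (0.907) and Cdkn1b (0.899). Aqp1 was most like Zfp358 (0.904), Ppt2 (0.902) and Hoxb8 (0.889), a gene of anterior-posterior position, and Aqp11 like Ces1f (0.844), A930015D03Rik (0.821) and Prr5 (0.816). The libraries of a mouse share an animal, a series and a preparation, so the 16 points are not independent. With or without the subtraction, the named genes were picked for the highest r among many genes, so high values can arise from selection alone. None of these r was tested, and neither was a link of any aquaporin to sex or to position along the colon.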

How the data were processed

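Colon EpCAM+ cells of 8 mice, sorted into tdTom+ and tdTom− populations, were sequenced as stranded mRNA libraries. The authors aligned single-end reads to GRCm38.p3 with TopHat2 2.1.1 and deposited counts per gene on exons from featureCounts (1.5.0-p1 in the file headers, Subread 1.5.2 in the submitters' processing notes), from primary alignments on the reverse strand, with no normalization. Groups and mouse numbers came from the labels. Paralogs with near-identical sequence may have lost or split reads at this step.

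The deposited counts were tested in R 4.3.3 by edgeR 4.0.16 (filterByExpr, TMM, glmQLFit and glmQLFTest, no mouse term, Benjamini-Hochberg adjusted p under 0.01). Each standard error was computed from the F statistic and the log2 fold change. CPM and RPKM used TMM library sizes and the gene lengths in the files, log2 CPM a prior count of 2 and log2 RPKM a pseudocount of 0.01. The fits were tested on simulated counts with known changes. Simulated libraries were drawn independently, with no effect of the mouse, so they cannot decide between the fits with and without the block. Symbols came from GENCODE M21 (44585 of 45513 genes); promoters came from RefSeq's table, in which 5 of the 6 genes matched. Exact sign-flip tests used 256 sign patterns and an adjusted p of 0.05. Intervals have a confidence level of 95% and, like the floor of 3 counts, cover counting error only. Summaries used scipy 1.17.1, pandas 2.3.3 and numpy 2.4.6 under Python 3.11.15.

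The pairing comes from the mouse numbers, since both populations of a number are from 1 animal. Deviations from the population means were shared within a mouse, with correlations across genes of 0.223 to 0.409, against at most 0.168 between different mice. No 2 libraries of a group differed as little as counting noise would give.

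The genes named are the 6 aquaporins, the other measured family members, the 2 highest and 2 lowest called genes of each list, the nearest tested genes on either side, the 3 genes most like each tested aquaporin by 2 measures, Atoh1 and Epcam. Absorptive and other markers were named beyond this rule where their values touch a result. The 6 aquaporins and the lists were chosen with earlier results of these data known. Alternatives were the mouse as a block, DESeq2 1.42.0, other normalizations and filters, each mouse left out, and series A or C alone. Only the settings with the block had a mouse term. Small intestinal samples were not analysed here.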

Additional observations from a re-analysis of the deposited data

Results flagged for a closer look

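Aqp8 in the tdTom− library of mouse 4 lay far from the other libraries of its population, at a log2 CPM of 8.33 against 9.21 to 9.48 in the other 7 mice. Its gap to the nearest library was 0.764 of the whole range, more than Dixon's test allows for 8 samples at the 95% level. Of the 8 sets of libraries looked at (4 genes in 2 populations) this was the 1 that passed. Chance passes about 1 in 20 sets, or 0.4 of the 8. Aqp8 of mouse 4 was also the lowest in tdTom+ cells, and 9 of 10 absorptive markers were at their lowest in the same tdTom− library, which also had the smallest mitochondrial share among tdTom− libraries (3.74%). What these values have to do with each other was not tested.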

How the results depend on the processing

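Of 322 values recomputed under alternatives, 306 stayed on the same side of their test, within 1.5 times for numbers of genes, or within their error where there was no test, and no called value changed sign. Aqp1 crossed the threshold with the mouse as a replicate block (0.38, adjusted p = 5.857e-06), at an adjusted p of 0.05 (0.39, adjusted p = 0.0479), in series C alone (0.33, adjusted p = 0.0002042) and with the block and without mouse 4, a setting chosen after seeing the data (0.42, adjusted p = 2.06e-06), all edgeR; over its 18 alternatives the adjusted p ran up to 0.0784. In each of these the number of aquaporins called higher was 1, and the block changed no other aquaporin's call. Aqp11 lost its call in series A alone (−0.47) and in series C alone (−0.30), and without mouse 1, 4 or 8, with −0.41 to −0.29 over the 8 settings that leave out a mouse. With series A alone, where 3 mice remain in each group, 2546 genes were higher and 2559 lower against 4032 and 4042. In CPM without division by length Aqp4 was above Aqp1 in tdTom− cells by 1.29 on the log2 scale (adjusted exact p = 0.009766). Aqp8 stayed between −5.30 and −5.08 and Aqp4 between −2.132 and −2.003 under all 18 alternatives of each. The median log2 fold change of all genes was near 0 and of either sign, from −0.040 (DESeq2) to 0.028 (without mouse 4).

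Depth limits what can be read from Aqp3, Aqp7, Aqp9 and Aqp12, and leaving out 1 mouse moved the ratio of Aqp3 between 0.192 and 0.391 and that of Aqp7 between 0.910 and 1.13, on either side of equal levels. Possible batches hold 3, 1 and 4 mice, and each has both populations.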
